A study of Rattus norvegicus with 18 samples.

Results

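The 10 genes described here encode dual-specificity phosphatases that act on MAP kinases: Dusp1, Dusp2, Dusp4, Dusp5, Dusp6, Dusp7, Dusp8, Dusp10, Dusp14 and Dusp16. They were taken by name from the 17455 genes of the expression tables, in which all 10 are listed, and from the peak lists. MAP kinases of the ERK, JNK and p38 classes are switched on when both a threonine and a tyrosine of their activation loop are phosphorylated. Dual-specificity phosphatases remove both phosphates and so switch the kinases off. Several of their genes are themselves induced by MAP kinase signalling and form a negative feedback loop, which in cardiac cells has been studied in hypertrophy and stress.

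The RNA came from wild-type H9c2 cells, a myoblast line of rat heart, treated with bufalin, treated with periplocin, or left as control. Both compounds are cardiotonic steroids that block the sodium and potassium pump. Bufalin is a bufadienolide, with a pyranone lactone ring and no sugar, and periplocin is a cardenolide, with a butenolide lactone ring and a sugar chain. Each of the 3 conditions had 3 input libraries and 3 libraries of RNA pulled down with an antibody to m6A, the N6-methyl mark of adenosines in mRNA, 18 in all. The labels give neither dose nor time. They name no separate cultures either, so a p-value speaks for the spread among these libraries, which may be technical.

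The expression tables hold the authors' comparison of each compound with control, with 1 value per gene, and single libraries were not analysed here. Whether they rest on input or pull-down libraries is not stated in the sources used here. Summed over genes, the mean normalized count came to about 36943700 for the bufalin comparison and 35562000 for periplocin. Genes with a mean of 10 or more had a median standard error (SE) of 0.11 in both authors' deposited tables, on the log2 scale. The myoblast label was set against marker genes. In control cells Cdh15, Des, Vim and Myod1 had fitted means of 2223, 1002, 68248 and 672 normalized counts in the bufalin table, while Myog was at 11.5 and Myf5 was listed at 0 in the authors' deposited table. Of the cardiomyocyte markers Tnnt2 stood at 4549, Myh6 at 313, Nkx2-5 at 92.4 and Tnni3 at 65.6. Of the markers of other cells Krt8 stood at 1057, Cd68 at 65.6, and Ptprc, Pecam1 and Cdh5 between 1.95 and 5.09, while Epcam was listed at 0. None of these markers was called, or had an unadjusted p under 0.05, in either comparison with control. Only Vim and Tnnt2 had an adjusted p with bufalin. Between the compounds 0 were called by the Wald test described below. Tnnt2, at -0.29 ± 0.09 (bufalin minus periplocin, log2, SE), and Myod1, at 0.27 ± 0.13, had an unadjusted p under 0.05 there, as did 6.34% of all genes. In bulk RNA, fewer cells of a type and less RNA per cell cannot be told apart.

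The upstream sequences of Dusp1 and Dusp5 are shown because these genes had the lowest p-values of the group with periplocin. They come from RefSeq and are the 250 bases before the gene start on the plus strand of build GRCr8, at chr10:17184603-17184852 for Dusp1 and chr1:262543524-262543773 for Dusp5. In capitals are a cAMP response element (CRE, TGACGTCA) and an E-box (CACGTG) in Dusp1, and 2 CArG boxes, the sequence that serum response factor binds, in Dusp5.
Dusp1: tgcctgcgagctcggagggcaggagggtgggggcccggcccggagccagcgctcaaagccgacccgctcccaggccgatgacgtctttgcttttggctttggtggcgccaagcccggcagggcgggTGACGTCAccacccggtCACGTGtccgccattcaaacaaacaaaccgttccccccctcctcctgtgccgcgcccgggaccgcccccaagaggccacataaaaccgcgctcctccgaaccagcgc
Dusp5: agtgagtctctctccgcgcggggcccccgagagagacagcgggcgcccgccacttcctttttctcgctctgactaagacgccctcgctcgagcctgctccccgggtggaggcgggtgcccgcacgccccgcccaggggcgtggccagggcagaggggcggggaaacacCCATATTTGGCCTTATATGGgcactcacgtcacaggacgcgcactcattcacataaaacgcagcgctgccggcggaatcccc

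Windows were found for 9 of the 10 genes, all but Dusp4, with 3 alternative starts for Dusp14. The Dusp1 CRE runs from -124 to -117 from the gene start and its E-box from -107 to -102. The Dusp5 CArG boxes lie side by side, from -82 to -73 and from -72 to -63. Of all 33469 windows of the same length, 531 (1.59%) hold the CRE, 501 a CArG box and 1872 (5.59%) the E-box. Among the group the CRE was in Dusp1 alone, the CArG box in Dusp5 alone, and the E-box in Dusp1 and Dusp2. Both strands were searched. Of the other motifs searched, the GC box (GGGCGG, 30.5% of all windows) was in 7 of the genes and the shorter CRE core (TGACG, 18.2%, which overlaps the full CRE) in 5. Dusp14 alone held the AP-1 site (TGANTCA, 6.34%), the TATA box (TATAAA, 12.9%) and the ETS site (CCGGAA, 12.6%), each in a different window. The shares are per window, and Dusp14 was the only member with 3. The NF-kB site (in 0.0687% of windows) was in none of the genes. The motifs were picked with the RNA values known, and a match is a description of the letters only.

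With periplocin, Dusp1 rose and was the only member to pass the test. Dusp1 encodes MKP-1, a nuclear phosphatase of p38, JNK and ERK and an immediate early gene. Its fitted mean was 6537 normalized counts in periplocin-treated cells, against 4596 in control cells. That is 1.42-fold (95% Wald interval 1.27 to 1.59). In the authors' deposited table the log2 fold change was 0.51 ± 0.08 (SE, 3 libraries per group, DESeq2 with Benjamini-Hochberg adjustment, adjusted p = 7.62e-07). By p-value it ranked number 8 of 12906 genes. So 1 of the 9 members with a p was called, where 0.538% of 12445 genes were called and 0.514% were called higher. With bufalin the fitted mean of Dusp1 was 4309 normalized counts, against 4744 in control cells. The log2 fold change there was -0.14 ± 0.12 in the authors' deposited table (DESeq2, adjusted p = 0.743), and the fold of 0.908 had an interval of 0.773 to 1.07. The order of the levels was thus periplocin, control, bufalin, of which control and bufalin did not differ beyond their error.

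**Figure D1:**
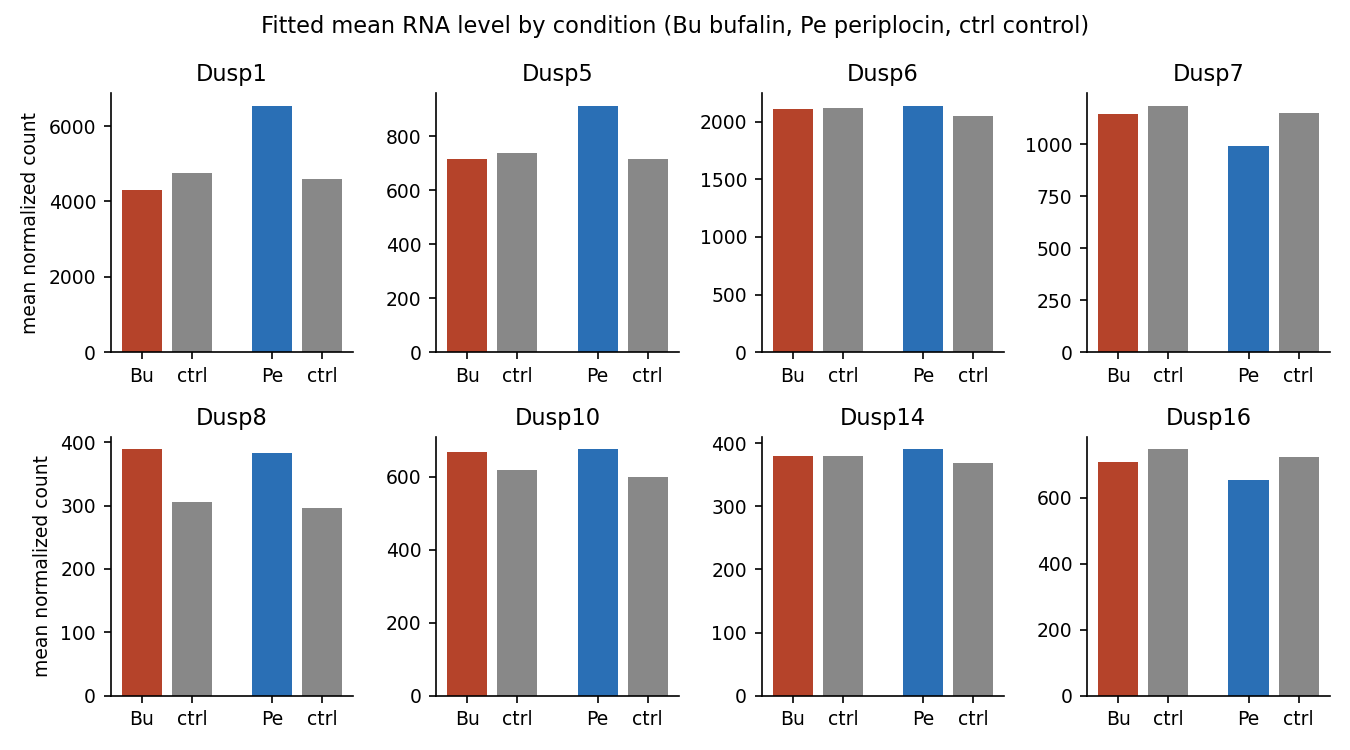
Fitted mean RNA level (mean normalized count, linear axis from 0) of the 8 members with a mean of at least 10, as bars for bufalin (Bu) and control (ctrl) from one table and periplocin (Pe) and control from the other. The tables were scaled separately, and no error is drawn because the means were worked out from 1 mean and 1 fold change per gene; Dusp1 stands at 6537 with periplocin against 4596 in control.

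With bufalin 0 of the 9 members with a p were called. Only Dusp1 had an adjusted p in the authors' deposited table, which gives one for 3321 genes with a mean of at least 2259 (0.301% called by DESeq2). With p adjusted again over all 12876 genes that have one, 0.0932% of genes and 0 members passed. No member had an unadjusted p under 0.05 with bufalin, against 5% of all genes. With periplocin 3 did, against 6.25% of all genes: Dusp1 and Dusp5 were above 0, as were 4.09% of genes, and Dusp7 was below, as were 2.15%. Over the 8 members with a mean of 10 or more, the median log2 fold change was -0.03 with bufalin, with 2 above and 6 below 0, and 0.13 with periplocin, with 6 above and 2 below. Over all genes of that level it was 0.00 with bufalin and -0.00 with periplocin. These medians describe the list and were not tested, and both comparisons use the same controls.

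The other nuclear, inducible members are Dusp5, Dusp4 and Dusp2. Dusp5, which dephosphorylates ERK and holds it in the nucleus, had a fitted mean of 913 normalized counts with periplocin, against 717 in control. Its log2 fold change was 0.35 ± 0.14 in the authors' deposited table (DESeq2, unadjusted p = 0.0133, adjusted p = 0.483), a fold of 1.27 (interval 1.05 to 1.54). With bufalin it stood at 718, against 740 in control, and the log2 fold change in the authors' deposited table was -0.04 ± 0.17. Dusp5 was thus nearest to Dusp1 by p with periplocin but did not pass over all genes. A long noncoding RNA, LOC134485251, overlaps the gene in RefSeq, so its level is uncertain where reads were shared. Dusp4, or MKP-2, was close to the floor of detection. Its fitted means were 9.38 with bufalin against 3.75 in control, and 1.58 with periplocin against 3.63 in control. The intervals of its fold, 0.473 to 13.2 and 0.0207 to 9.22, leave its direction unresolved at this depth. Dusp2, or PAC-1, best known from activated lymphocytes, was listed at 0 in both of the authors' deposited tables.

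The cytoplasmic, ERK-selective members are Dusp6 and Dusp7. Dusp6, or MKP-3, a feedback inhibitor of ERK signalling, had fold intervals that span 1 with both compounds. Its fitted mean was 2109 with bufalin against 2118 in control, and 2137 with periplocin against 2053 in control. The folds were 0.995 (interval 0.859 to 1.15) and 1.04 (interval 0.926 to 1.17), so a change of the size seen in Dusp1 with periplocin lies outside both intervals. Dusp7 had a fitted mean of 994 with periplocin, against 1149 in control. Its log2 fold change was -0.21 ± 0.10 in the authors' deposited table (DESeq2, unadjusted p = 0.0385, adjusted p = 0.719), and with bufalin it was -0.05 ± 0.09 in the authors' deposited table. The Dusp7 gene overlaps Rpl29 in the RefSeq annotation and the counting of strands is not stated, so its level is uncertain where reads were shared.

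Dusp8, Dusp10 and Dusp16 prefer JNK and p38 over ERK. Dusp8 had log2 fold changes of 0.35 ± 0.24 with bufalin and 0.37 ± 0.20 with periplocin in the authors' deposited tables (DESeq2, unadjusted p = 0.151 and 0.0572). Its fitted means were 389 with bufalin against 306 in control, and 384 with periplocin against 296 in control. Neither passed. Dusp10, or MKP-5, stood at 0.11 ± 0.20 and 0.17 ± 0.18, and Dusp16, or MKP-7, at -0.08 ± 0.13 and -0.15 ± 0.12 (log2, bufalin and periplocin) in the authors' deposited tables. Dusp14, a small member without the kinase-binding domain of the others, stood at -0.00 ± 0.17 and 0.08 ± 0.15 in the same authors' deposited tables. RefSeq lists a copy by name, Dusp14l1, and a pseudogene that overlaps the gene, Rps15a-ps2, so the level of Dusp14 is uncertain if reads were shared. The plot of the log2 changes shows the overlap of the intervals with 0.

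**Figure D2:**
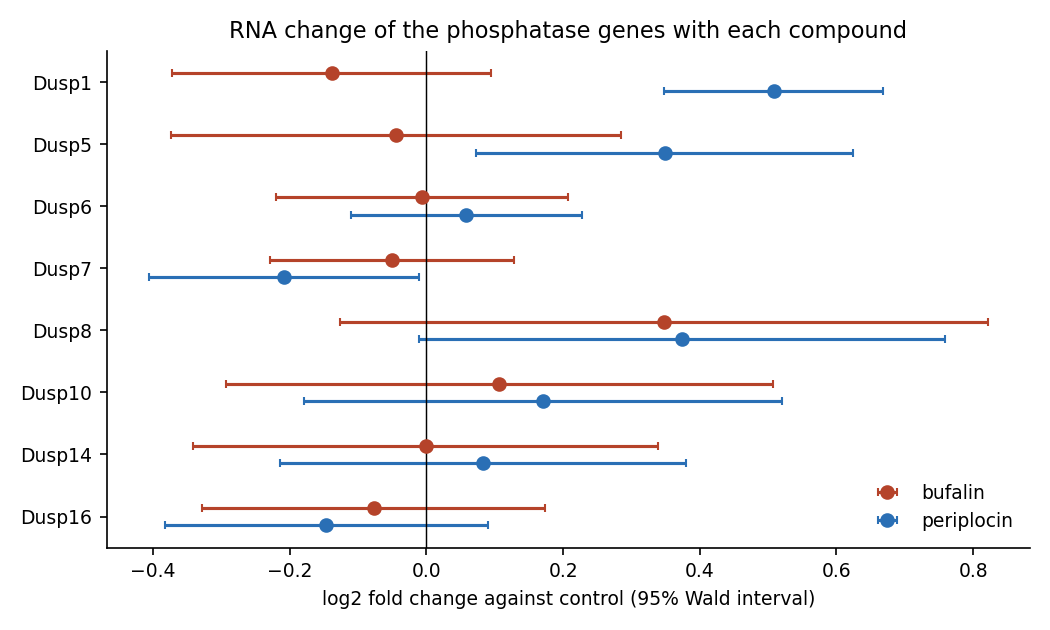
Log2 fold change of RNA against control (x axis) for the 8 members with a mean of at least 10, with bufalin (red, upper point) and periplocin (blue, lower point); bars span the 95% interval given by each deposited SE. With periplocin the interval of Dusp1 runs from 0.35 to 0.67, and with bufalin from -0.37 to 0.09.

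The SE of several members was large for their level. The SE of Dusp1 with bufalin, 0.12 in the authors' deposited table, was larger than that of 96.1% of the 667 genes whose mean lay within 1.2-fold of its own, whose median was 0.0705. With periplocin it exceeded that of 94.6% of 575 such genes. For Dusp5 the shares were 95.5% and 96.8%, for Dusp8 97.2% and 90.9%, and for Dusp10 98.6% and 98.6%. For Dusp7, Dusp14 and Dusp16 they lay between 13.2% and 63.8%. In each comparison 7 of the 8 members lay above the median of genes of like level. It was above that of 90% of such genes for 5 of the 8 with bufalin and for 4 with periplocin.

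**Figure D3:**
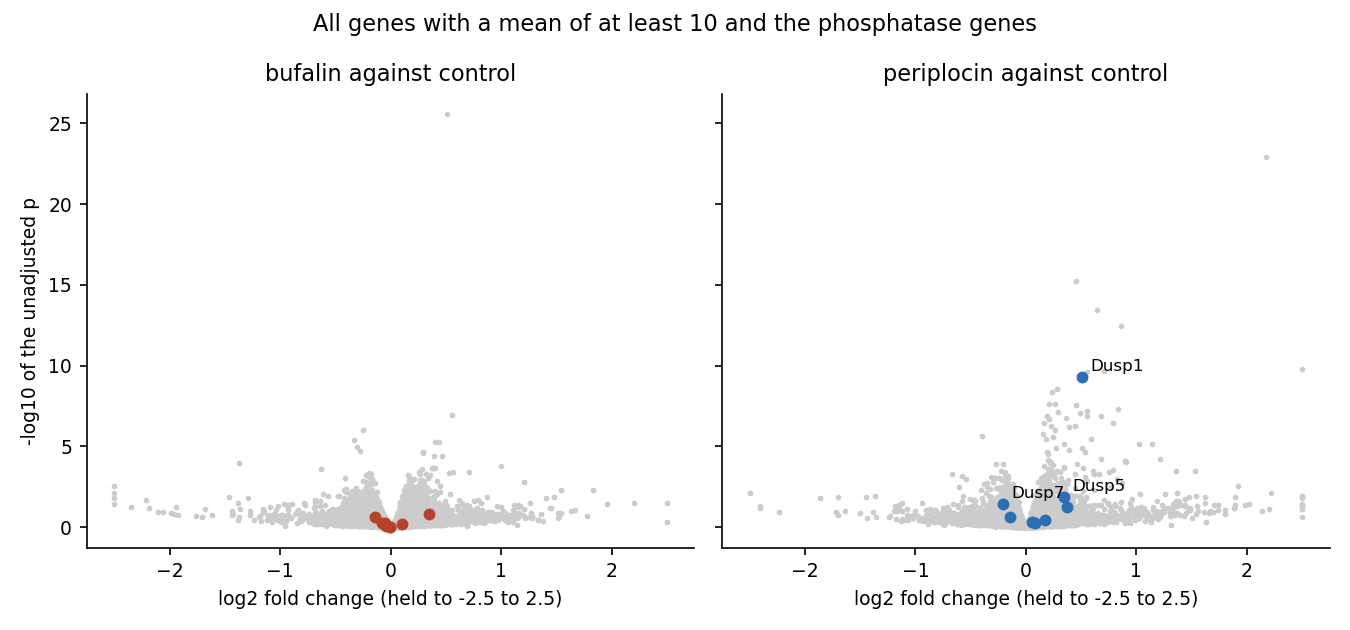
Log2 fold change (x axis, values past 2.5 drawn at the edge) against -log10 of the authors' unadjusted p (y axis) for all genes with a mean of at least 10 (grey) and the 8 members among them (coloured), with bufalin at left and periplocin at right. Members with an unadjusted p under 0.05 are named: there are 0 with bufalin and 3 with periplocin.

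The pair of compounds was compared for the 8 members with a mean of 10 or more in both tables, and the shared controls cancel in this comparison. Dusp1 RNA was lower in bufalin-treated than in periplocin-treated cells. The bufalin minus periplocin difference was -0.65 ± 0.10 (log2, SE), with an interval of -0.85 to -0.45. That is 0.639-fold (interval 0.556 to 0.733), by a Wald test worked out approximately from the deposited DESeq2 SE values and adjusted over 10602 genes (adjusted p = 3.23e-07). With an upper limit of the SE that takes no account of the shared controls, Dusp1 still passed (adjusted p = 0.0109). It was 1 of 8 members called, where 0.396% of all genes were called and 0.292% were higher with periplocin. At an unadjusted p under 0.05 there were 2, Dusp1 and Dusp5, against 6.34% of genes.

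For Dusp5 the difference was -0.39 ± 0.15 (log2, SE; unadjusted p = 0.0110, adjusted p = 0.494 by the same Wald test over DESeq2 estimates). Its interval of -0.70 to -0.09 widened to -0.82 to 0.04 with the upper limit of the SE. Dusp7 leaned the other way, at 0.16 ± 0.10, with an interval of -0.03 to 0.35. The remaining 5 members, Dusp6, Dusp8, Dusp10, Dusp14 and Dusp16, had differences between -0.08 and 0.07. As folds of bufalin over periplocin the intervals were 0.837 to 1.09 for Dusp6, 0.885 to 1.24 for Dusp16, 0.756 to 1.18 for Dusp14, 0.738 to 1.24 for Dusp10 and 0.729 to 1.32 for Dusp8. None of these was shown to differ between the compounds or to respond alike. Doses and times are not in the labels, so structure, dose and time cannot be told apart here.

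**Figure D4:**
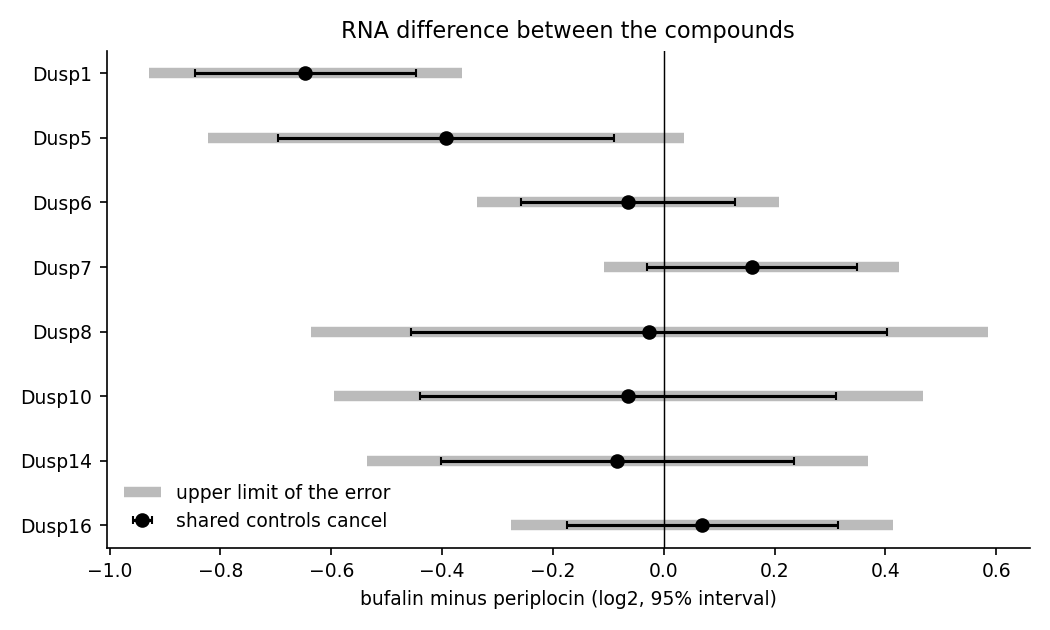
Bufalin minus periplocin difference of RNA (x axis, log2) for the 8 members; points and thin bars are the estimate and its 95% interval with the shared controls cancelling, and thick grey bars the interval from the upper limit of the SE. Dusp1, at -0.65, lies wholly below 0 on both.

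The genes whose pair of changes lay nearest to that of Dusp1, by Euclidean distance over the 2 comparisons and 8424 genes with a mean of at least 200, were Trib1, Dcaf11 and Btg2. Trib1, a pseudokinase that steers protein degradation, stood at -0.12 ± 0.15 with bufalin and 0.51 ± 0.12 with periplocin in the authors' deposited tables (log2, SE), at a distance of 0.0170. It passed with periplocin (DESeq2, adjusted p = 0.00404) and differed between the compounds (adjusted p = 0.00117 by the Wald test over the DESeq2 estimates). Dcaf11 and the antiproliferative gene Btg2, at distances of 0.0242 and 0.0555, had log2 changes of 0.49 ± 0.19 and 0.47 ± 0.24 in the authors' deposited table for periplocin and did not pass. All 4 genes were read against the same control libraries. The genes near Dusp1 were picked by these same changes, so their p-values lend it no separate support.

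Around these phosphatases, 5 lists of genes of the MAP kinase pathway were described. Of the kinases themselves, 9 of 11 had a p with bufalin (5 an adjusted one) and 10 with periplocin (9), and 0 were called by DESeq2 in either, with 0 at an unadjusted p under 0.05. The ERK kinase Mapk3 stood at -0.03 ± 0.07 and -0.05 ± 0.07, the p38 kinase Mapk14 at -0.10 ± 0.06 and -0.08 ± 0.06, Mapk6 at 0.11 ± 0.07 and 0.07 ± 0.05, and Mapk7 at 0.12 ± 0.10 and 0.19 ± 0.10 (log2, bufalin and periplocin) in the authors' deposited tables. The list's medians were 0.05 and 0.00. Of 21 upstream kinases, 19 were listed by name in the expression tables, all but Braf and Map3k20. Of these 19, 5 had an adjusted p with bufalin and 0 were called by DESeq2, and the medians were -0.05 and 0.01. At an unadjusted p under 0.05 there was 1 in each comparison with control, Map3k1 with bufalin and Map3k12 with periplocin. Of all genes, 5% with bufalin and 6.25% with periplocin had one. Between the compounds 4 of 19 had one by the Wald test, where 6.34% of all genes did, and 0 were called. Map3k1 stood at 0.30 ± 0.14 with bufalin and 0.01 ± 0.13 with periplocin, Map3k2 at 0.27 ± 0.14 and 0.19 ± 0.12, Map2k6 at -0.06 ± 0.19 and -0.26 ± 0.20, and Map3k14 at -0.07 ± 0.13 and -0.10 ± 0.15 in the authors' deposited tables.

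Among 17 genes known as outputs or feedback inhibitors of ERK signalling, 3 were called higher with periplocin (0.514% of all genes were) and 0 lower: the transcription factors Myc and Fosl1 and the ephrin receptor Epha2. With bufalin 0 were called by DESeq2, with 0 at an unadjusted p under 0.05, though only 6 of the 17 had an adjusted p there. At an unadjusted p under 0.05 there were 7 of 17 with periplocin and 6 between the compounds, where 6.25% and 6.34% of all genes were. Their medians were -0.01 with bufalin and 0.17 with periplocin. The list was chosen with earlier results of these data known, so its counts and medians only describe it and were not tested. Epha2 stood at 0.20 ± 0.05 with periplocin (DESeq2, adjusted p = 0.0181) and at 0.06 ± 0.06 with bufalin in the authors' deposited tables. Fosl1 stood at 0.71 ± 0.11 and Myc at 0.86 ± 0.12 with periplocin in the authors' deposited table, and both differed between the compounds (adjusted p = 0.00117 and 5.42e-08 by the Wald test over the DESeq2 estimates). Fos, at 0.63 ± 0.49 with bufalin and 1.03 ± 0.39 with periplocin in the authors' deposited tables, did not pass. Etv1 stood at -0.16 ± 0.17 and -0.15 ± 0.13 and Spred2 at -0.14 ± 0.12 and -0.05 ± 0.10 in the authors' deposited tables. 

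Of 15 listed dual-specificity phosphatases outside the 10, 13 had a p with bufalin, only 1 of them an adjusted one, and 12 had both with periplocin. In neither comparison was any called by DESeq2, and 0 had an unadjusted p under 0.05. Dusp3, also known as VHR, stood at -0.10 ± 0.07 and -0.12 ± 0.07, Dusp27 at -0.03 ± 0.16 and 0.17 ± 0.13, Dusp12 at -0.08 ± 0.20 and -0.01 ± 0.20, and the pseudophosphatase Styx at 0.23 ± 0.16 and 0.14 ± 0.15 (log2, bufalin and periplocin) in the authors' deposited tables. Of 8 other phosphatases of MAP kinases, of which 4 had an adjusted p with bufalin, 0 were called by DESeq2. Only 1 of them, Ppm1b, had an unadjusted p under 0.05 with bufalin, and by the Wald test also between the compounds. Of all genes 5% and 6.34% had one there. Ppm1b stood at 0.12 ± 0.06 with bufalin and 0.01 ± 0.04 with periplocin in the authors' deposited tables. Ppm1a, Ppm1d and Ppp2cb lay between -0.12 and 0.04 in the authors' deposited tables.

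The m6A peak lists, 9866 peaks for bufalin and 9170 for periplocin, held 11 and 12 peaks on these genes. Peaks were on Dusp1, Dusp5, Dusp6, Dusp10 and Dusp16 in both lists and on Dusp14 in the periplocin list alone. Dusp7 and Dusp8, which are expressed, and Dusp4 and Dusp2, near or at 0, had no peak in either. Of the 8 members with a mean of at least 200, 5 held a peak in the bufalin list and 6 in the periplocin list, where 58.2% and 55.7% of all genes of that level did. The share of members with a peak was thus near that of other genes. Each peak was a single block of 99 to 295 bases. The fold enrichment of a peak, read as pull-down over input, is the authors' value, with 1 list per comparison and no value per library.

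Dusp1 held 2 peaks in the bufalin list and 1 in the periplocin list. In the bufalin list the peaks lay at chr10:16972635-16972783 and chr10:16972882-16973030 (rn6, plus strand), with folds of 1.22 and 1.43 in the authors' deposited list. A share of 2.87% of all peaks in that list had a fold below that of the first, and 16.2% below that of the second. Peaks of Dusp6 (1.33-fold, above 8.71% of peaks) and Dusp5 (1.37-fold, above 11.5%) lay between these in the authors' deposited list. In the periplocin list the second interval alone was called, at 1.24-fold, above 3.85% of peaks in the authors' deposited list. The log10 p of enrichment of this shared interval was -12.8 in the bufalin list and -12.3 in the periplocin list, both the authors' deposited lists.

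Dusp5 and Dusp16 carried the most enriched peaks of the group. The Dusp5 peak at chr1:274257411-274257559 was enriched 3-fold in the bufalin list, above 95.5% of its peaks. In the periplocin list the overlapping interval chr1:274257509-274257608 was enriched 1.81-fold. These intervals share 51 bases and were called apart in each list, so the values are not of the same bases. The second Dusp5 peak had 1.37-fold in the bufalin list and 1.38-fold in the periplocin list. For Dusp16 the peak at chr4:168472659-168472808 (minus strand) was enriched 2.46-fold in the bufalin list and 2.65-fold in the periplocin list. The periplocin list held 2 more Dusp16 peaks, of 1.79-fold and 2.69-fold, the stronger at chr4:168473602-168473750.

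Dusp10 and Dusp6 had the most peaks over both lists. Dusp10 had 3 in each, of which the first, at chr13:104287232-104287526 in the bufalin list, lay 32699 bases from the next. Their folds ran from 1.57 to 2.25 in the bufalin list and from 1.56 to 1.98 in the periplocin list. Dusp6 had 3 in the bufalin list, of 1.33-fold to 1.70-fold, and 2 in the periplocin list, of 1.36-fold and 1.78-fold, all within chr7:41476665-41478508. The single Dusp14 peak, at chr10:71364427-71364525 on the minus strand, had 1.82-fold in the periplocin list. Median folds over the members were 1.57 and 1.79, against 1.82 and 1.81 over all peaks of the lists.

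**Figure D5:**
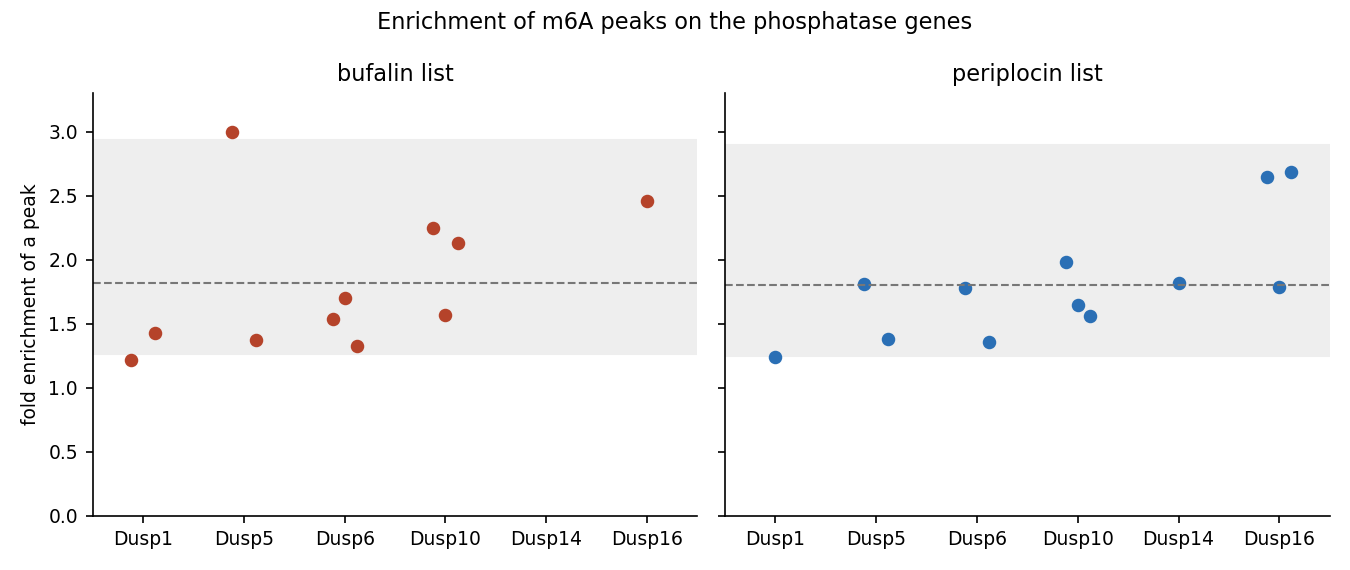
Fold enrichment of each m6A peak (y axis, linear from 0) on the members that hold one, in the bufalin list at left and the periplocin list at right; the dashed line is the median of all peaks of that list and the grey band runs from their 5th to their 95th percentile. The Dusp1 peaks at 1.22 and 1.24 lie below the band, whose lower edges are 1.26 and 1.25, the Dusp1 peak at 1.43 lies inside it, and Dusp5 and Dusp16 hold the highest, 3 and 2.69.

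For none of these peaks was a change called with either compound. Of 11 and 12 peaks 0 passed an FDR of 0.05 for the change in the authors' deposited lists, where 0.0304% and 0.0436% of all peaks did, and the FDR was 1 for every one of them. At an unadjusted p under 0.05 there were also 0, against 3.04% and 3.37% of all peaks. The direction of the change is not stated in the lists and was read as treated over control. The lowest p of a change was 0.109, for the Dusp1 peak with periplocin, whose log2 change was -0.42 in the authors' deposited list. With bufalin the change of the same interval was -0.13 in the authors' deposited list. Changes over the group ran from -0.52 (Dusp10) to 0.21 (Dusp16) with bufalin and from -0.42 (Dusp1) to 0.39 (Dusp16) with periplocin in the authors' deposited lists. The lists give no standard error of a change, so how small a change could have been detected is not known.

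Of these peaks, 9 pairs overlapped by at least 1 base on the same strand, 81.8% of the bufalin peaks and 75% of the periplocin peaks of the group, and 5 pairs had identical ends. Over the whole lists 83% of bufalin peaks and 89.4% of periplocin peaks shared a base with a peak of the same gene in the other list. In 4 of the 9 the fold was higher in the bufalin list and in 5 in the periplocin list. Unpaired were a Dusp1 and a Dusp6 peak in the bufalin list, and a Dusp14 and 2 Dusp16 peaks in the periplocin list. A peak absent from one list was not tested for a difference between the compounds.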

How the data were processed

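The labels gave each library's compound and kind. The submitters' processing notes name HISAT2, StringTie, DESeq and the build rn6; versions are not given. The signal column of the deposited expression tables is a mean of normalized counts over libraries, per the file headers. The authors' log2 fold changes and SE were taken as those of DESeq2. That tool is in the names of the deposited expression tables but not in their headers. The authors' Wald score had the opposite sign to the fold change in all 12906 genes of the periplocin table, and fold changes were followed: control means of both tables then fell within 1% of each other, apart from an offset of 0.05 (log2), for 10602 of 10602 genes. The p-values are as deposited. In the deposited peak lists the fold is a ratio, per the file headers; no caller is named. The p and FDR columns of the deposited lists were read as log10. On that reading the p of enrichment matched the p in another column within 15% for all 9866 and 9170 peaks. Read as natural logs it matched for 0. The FDR of the change matched a Benjamini-Hochberg adjustment of its p within 0.05 for all peaks. It did so for 9830 and 9087 peaks as natural logs too, so few peaks tell the readings of the change apart. The lowest log10 p of a change in the periplocin list was -434.

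Fitted group means were computed from each mean and fold change, with equal group sizes. Calls use the deposited adjusted p under 0.05. The Wald test between the compounds takes the spread between libraries from each SE. It was run on simulated data in which the spread was known and the same in all conditions. That run cannot show how the test behaves with a spread estimated from 3 libraries per group. Members, lists and motifs were chosen with earlier results of these data known. Named genes were the members, per list the called genes and the 2 highest and 2 lowest by mean change at a mean of at least 100, and the 3 nearest to a called member. RefSeq (GRCr8) gave overlaps and promoter windows. Where peaks fall along transcripts was not analysed here. Software was matplotlib 3.10.9, scipy 1.17.1, pandas 2.3.3, numpy 2.4.6 and Python 3.11.15.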

Additional observations from a re-analysis of the deposited data

How the results depend on the processing

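For the 18 single-gene RNA results with a main adjusted p, all 80 alternatives that gave one stayed on the same side of the threshold. These were other sets of genes for the Benjamini-Hochberg adjustment, an adjusted p of 0.1, centring on the median and, between the compounds, the upper limit of the SE. Of these results, only Dusp1 with periplocin and Dusp1 between the compounds passed, with 5 and 4 alternatives. The rest had a main adjusted p of 0.483 (DESeq2, Dusp5 with periplocin) or more. Such alternatives could hardly bring those values under the threshold, so that they stayed above it says little. For the 8 results without a main adjusted p, all with bufalin, only other sets of genes for the adjustment were run. There 0 of 22 alternatives passed (lowest adjusted p = 0.920). None could have passed, since the lowest unadjusted DESeq2 p among them was 0.151, for Dusp8. Centring alone could alter a fold change, and it turned no direction among these results. For Dusp1 the adjusted p over the alternatives ran from 5.91e-07 to 7.90e-07 with periplocin and from 2.56e-07 to 0.0109 between the compounds. Counts moved by over 1.5 times in 3 of 14 cases over all genes, 1 of 6 over all peaks and 0 of 21 over the members. The member counts of changed peaks and of RNA with bufalin were 0 and could not have moved. No member came near the threshold there, so the 0 of 21 does not show that member counts are more stable. Over all genes, the counts at an adjusted p under 0.1 were 21 with bufalin and 101 with periplocin. The upper limit of the SE left 8 genes between the compounds, and an FDR of 0.01 left 0 bufalin peaks. No paired analysis was possible because the values are comparisons with no value per library, and for the same reason leaving out replicates was not run. Low counts limit Dusp4 and Dusp2.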
